A study of Mus musculus with 65 samples.

Results

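The genes described here are 8 members of the Notch pathway whose transcripts were counted in single hematopoietic stem cells of aged mice. They are Jag2, a ligand; Adam17, a membrane protease; Psen2, Psenen and Ncstn, which encode subunits of gamma-secretase; Numb and Dtx3, regulators; and Maml1, a nuclear coactivator. They were taken from the deposited table by a fixed list of symbols, matched through NCBI gene identifiers. The rule itself uses no measured value, but the list was drawn up with earlier results of these cells known. The table holds 18036 genes, of which 6826 had a value above 0 in any cell. The list names 8 genes, and each of the 8 was in the table with a value above 0 in at least 1 cell.

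Notch is a receptor on the cell surface that is cut when a ligand of the Jagged or Delta-like family on a neighbouring cell pulls on it. An ADAM protease first sheds the outer part, and gamma-secretase then cuts within the membrane and frees the intracellular domain, which enters the nucleus and forms an activating complex with RBPJ and a Mastermind-like protein. In bone marrow, Jagged and Delta-like ligands are made by endothelial and other niche cells, and the receptors are carried by stem cells and their progeny. Gamma-secretase and ADAM17 cut many membrane proteins other than Notch, so their transcripts mark no single pathway.

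The cells came from mice older than 20 months, double heterozygous for an SCL-driven tetracycline transactivator and an H2B-GFP histone reporter. Both groups carry both transgenes and differ in GFP only. In this kind of mouse a cell that was labelled and then divided rarely stays bright, and a cell that never carried the label cannot be told from one that diluted it. Long-term stem cells, gated as LSK cells with CD150 and with no Flk2 or CD48 and little or no CD34, were sorted singly as GFP positive, called label-retaining here, or GFP negative, called non-label-retaining. All were kept overnight without growth factors at 3% oxygen before full-length cDNA was made. There were 4 biological repeats: 9, 9, 10 and 9 label-retaining cells, 37 in all, and 8, 4, 6 and 10 non-label-retaining cells, 28 in all. The labels do not say whether a repeat is 1 mouse or a pool. The repeat is the unit of every test, because cells of 1 repeat share their source.

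Total counts per cell ran from 27954 to 20516069 in the label-retaining group, with a median of 264894, and from 86 to 661078 in the non-label-retaining group, with a median of 118056. Of the non-label-retaining cells 4 had under 10000 counts, against 0 of the label-retaining cells. Of 14 listed long-term stem cell genes 7 were in the table, among them Hlf, seen in 31 label-retaining and 12 non-label-retaining cells, and Gata2, seen in 24 and 10. Slamf1, which encodes the CD150 used in the sort, was seen in 0 cells of either group. Cd48 and Flt3, whose products the sort excluded, were also at 0. The haemoglobin transcript Hba-a1 was found in 36 label-retaining and 24 non-label-retaining cells, Hbb-bs in 31 and 24 and Hba-a2 in 12 and 14. The listed erythroid genes took from 0.143% to 9.35% of counts as a mean per label-retaining repeat and from 0.386% to 3.18% per non-label-retaining repeat, and their part in the results was not tested. Nor was that of other listed markers seen in more label-retaining cells. Among these were Xcr1 in 23 against 10, Itga2b in 11 against 2, Cd79a in 8 against 3 and Cd68 in 7 against 0. Siglech was in 6 against 4 and Lyz2 in 3 against 0. The listed B cell genes reached 0.190% of counts in a label-retaining repeat and 0.000443% in a non-label-retaining one. Of the listed endothelial genes Jag2 alone was in the table.

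Some of the 65 libraries were too alike to be counted as independent cells, which touches every result on the 8 genes. The log2(count + 1) profiles over all genes but these 8 were correlated for each of the 2080 pairs of cells. Pairs from different repeats had a median r of 0.290 and reached 0.536 at most. At an r of at least 0.6 there were 32 pairs, called linked here, and they involved 31 cells. All 32 joined cells with the same repeat number. In 26 both cells were of the same group, and in 6 a label-retaining cell was linked to a non-label-retaining one. In 18 of them (56.3%) the index numbers in the labels were neighbours, which held for 2.79% of all pairs. No column was identical to another (0 pairs). Taking cells from the deepest down, each unless linked to one already kept, left 47 cells, 25 label-retaining and 22 non-label-retaining, and shares, levels, joint detections and the pathway counts below are given with and without the other cells. Where a linked pair joins the groups this choice keeps the deeper cell, which in repeat 1 was label-retaining cell 3 over non-label-retaining cell 3. Whether linked libraries share material, index reads or biology was not tested.

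**Figure D1:**
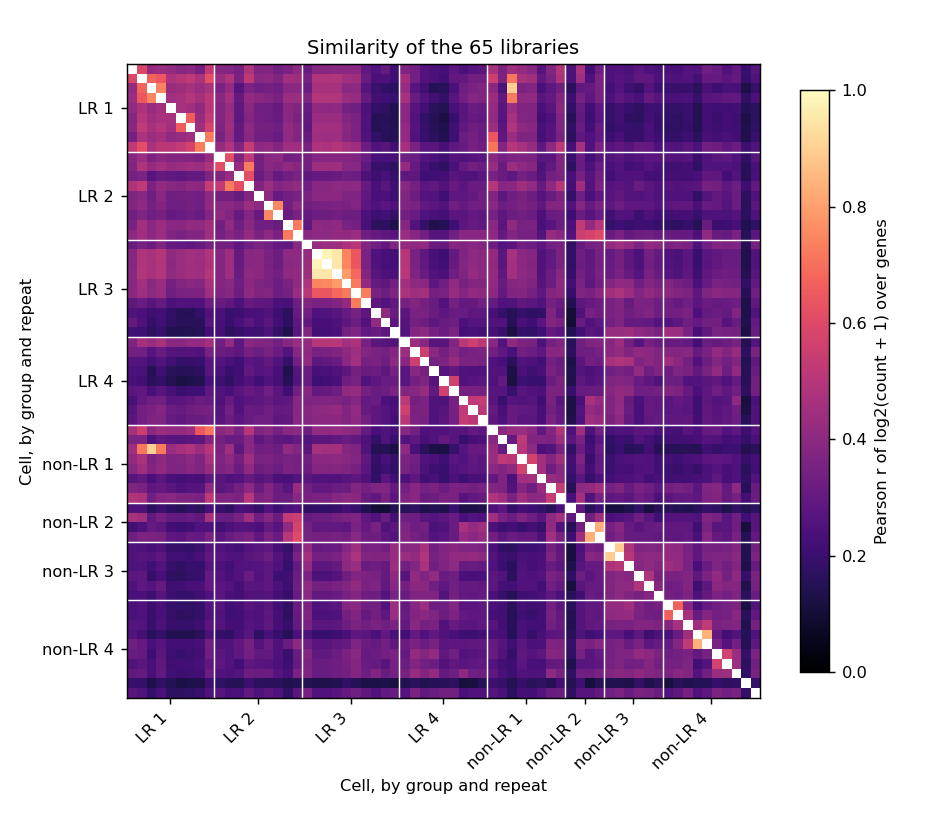
Pearson correlation of log2(count + 1) profiles, leaving out the 8 genes, between each pair of the 65 cells, ordered by group (LR, label-retaining; non-LR, non-label-retaining) and repeat. Bright squares lie within 1 repeat or between the 2 groups of the same repeat, the largest a block of label-retaining cells in repeat 3; pairs from different repeats stay at or below 0.536.

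The 8 genes were found in few cells, and in more label-retaining than non-label-retaining ones. A label-retaining cell held a mean of 1.63 ± 0.880 of the 8 genes (SD over 4 repeats), with repeat means of 2.89, 0.889, 1.2 and 1.56. A non-label-retaining cell held 0.540 ± 0.324, with repeat means of 0.875, 0.75, 0.333 and 0.2. The lowest label-retaining mean, 0.889 in repeat 2, is barely above the highest non-label-retaining one, 0.875 in repeat 1. The groups overlapped with linked cells left out (0.5 in label-retaining repeat 3 against 0.667 in non-label-retaining repeat 1), thinned to 10000 counts (0.380 in label-retaining repeat 2 against 0.543) and with the cells under 10000 counts left out (0.889 against 1). Of the 37 label-retaining cells 21 held at least 1 of the 8, 18 at least 2 and 6 at least 4. Of the 28 non-label-retaining cells 13 held at least 1, 1 held 2 and 0 held 4. Leaving out linked cells, these counts were 12, 10 and 3 of 25, and 10, 0 and 0 of 22. With linked cells left out the means were 1.26 ± 0.766 and 0.496 ± 0.207, and with every cell also thinned to 10000 counts they were 0.722 ± 0.374 and 0.238 ± 0.164. These 8-gene means carry no p, because of how the list was chosen.

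**Figure D2:**
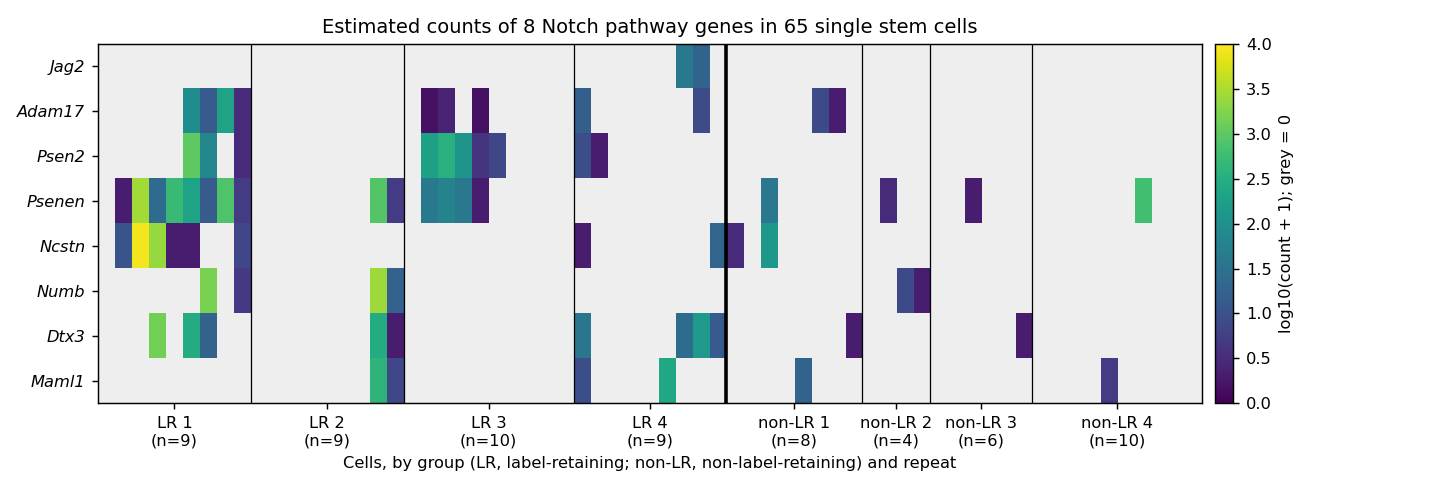
Estimated counts of the 8 genes (rows, ordered by role) in each of the 65 cells (columns, by group and repeat), coloured as log10(count + 1), with grey for 0. Filled squares cluster in label-retaining repeat 1 and in runs of adjacent cells in repeats 2 and 3, and the non-label-retaining side holds 14 filled squares against 60.

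Each gene's share of cells was compared over the 4 repeats of each group by an exact two-sided permutation test, run on every gene seen in at least 10 of the 65 cells and adjusted by Benjamini-Hochberg over all of them. With 4 repeats against 4 the smallest p this exact test can give is 0.0286. An adjusted p under 0.05 would therefore need a large part of all tested genes at that p. Of 3489 genes tested, 0% were called at an adjusted p under 0.05 (smallest 0.337), 8.48% (296 genes) had an unadjusted p under 0.05 with a higher share in label-retaining cells, and 0% with a lower one. The groups did not overlap for 8.48%. A larger mean share in label-retaining cells was the rule, found for 93.5% of the genes, and 29.1% were larger in all 4 repeats. The median difference over all tested genes was 19.4 percentage points. Psen2, Psenen, Ncstn, Adam17 and Dtx3 were tested. All 5 had a larger label-retaining share, with a median difference of 17.9 points, 0 of the 5 passed adjusted or unadjusted, and this is the direction of nearly all genes. After thinning to 10000 counts, 79.3% of the 1521 genes then tested were larger in label-retaining cells, and with linked cells left out 91.8% of 2548. In either case 0% were called and 0 of the 8 genes reached the 10 cells needed for a test.

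Jag2 (chr12:112907803-112929812), a Notch ligand that marrow endothelium is known to make, was the rarest. It was seen in 2 label-retaining cells, both of repeat 4, with 40 and 18 counts. These are cells 35 and 36, whose index numbers are neighbours, and neither was linked at an r of at least 0.6. Their r with each other was 0.531, so at the lower cut of 0.5 they would count as linked. It was at 0 in the other 3 label-retaining repeats and in all 28 non-label-retaining cells, of which 4 had under 10000 counts. If these were 28 independent cells of equal depth, which they are not, that would allow a share of up to 12.3% (exact Clopper-Pearson 95% interval, counting error only). Both Jag2 cells also held Dtx3, with 25 and 147 counts. Jag2 was in too few cells for a test.

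Adam17 (chr12:21323509-21373632) encodes a metalloprotease that sheds the outer parts of membrane proteins, Notch and TNF among them. It was found in 4 of 9, 0 of 9, 3 of 10 and 2 of 9 label-retaining cells of repeats 1 to 4, and in 2 of 8, 0 of 4, 0 of 6 and 0 of 10 non-label-retaining cells. Its highest count was 204 in a label-retaining cell and 7 in a non-label-retaining one. The mean shares were 24.2% ± 18.6 and 6.25% ± 12.5 (SD, n = 4 repeats), which did not pass the exact permutation test (p = 0.257, adjusted p = 0.525). The ranges overlap, since label-retaining repeat 2 has no cell with the gene. In label-retaining repeat 3 the 3 detections were fractions of reads or little more, at 0.5, 1.5 and 0.5 counts, and all lie in cells linked to each other. Without linked cells Adam17 was in 5 of 25 and 2 of 22 cells.

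Of the gamma-secretase subunits, Psen2 (chr1:180227004-180263467) encodes presenilin 2, a catalytic subunit. It was in 3 of 9, 0 of 9, 5 of 10 and 2 of 9 label-retaining cells and in 0 of 28 non-label-retaining cells. The label-retaining counts were 1001, 68.9 and 2 in repeat 1, then 187, 346, 115, 3 and 6 in repeat 3, and 8 and 1 in repeat 4. The mean label-retaining share was 26.4% ± 21.0 (SD, n = 4 repeats) against 0%, with an exact permutation p of 0.143 and an adjusted p of 0.439. Repeat 2, where both groups are at 0, makes the ranges touch. Of all tested genes 1.52% (53 genes) likewise had 0 non-label-retaining cells.

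Much of the Psen2 signal lies in linked libraries. Its 3 cells of highest count in repeat 3 are label-retaining cells 20, 21 and 22, which correlate with each other at 0.981, 0.954 and 0.952. The other 2 cells of that repeat with Psen2, cells 23 and 24, were also left out as linked. Once linked cells were left out Psen2 was in 4 of 25 label-retaining cells, 1 each in repeats 1 and 3 and 2 in repeat 4, and in 0 of 22 non-label-retaining cells. The mean share fell to 14.7% ± 10.1, and after thinning as well to 6.09% ± 7.13. Too few cells were left for a test.

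Psenen (chr7:30561865-30563627) encodes PEN-2, a small subunit needed for the maturation of the complex, and was the gene of the 8 seen most often. It was in 8 of 9, 2 of 9, 4 of 10 and 0 of 9 label-retaining cells and in 1 cell of each non-label-retaining repeat. The highest share, 88.9%, and the lowest, 0%, are both label-retaining, so the non-label-retaining values of 10% to 25.0% lie inside that range. The means were 37.8% ± 37.8 and 16.0% ± 6.57 (exact permutation p = 0.371, adjusted p = 0.596, n = 4 repeats). Within repeats the label-retaining share was larger in 2 and smaller in 2. Without linked cells Psenen was in 6 of 25 and 3 of 22 cells, with means of 29.2% and 16.5%, and the label-retaining share was larger in 1 repeat and smaller in 3.

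Ncstn (chr1:172066013-172082789) encodes nicastrin, the large glycoprotein of the complex. It was in 6 of 9 label-retaining cells of repeat 1 and 2 of 9 of repeat 4, in 0 of 9 and 0 of 10 of repeats 2 and 3, and in 2 of 8 non-label-retaining cells of repeat 1 and in no other repeat of that group. The means were 22.2% ± 31.4 and 6.25% ± 12.5 (exact permutation p = 0.714, adjusted p = 0.821, n = 4 repeats). Repeat 1 is thus the high repeat in both groups. Both non-label-retaining cells with Ncstn, cells 1 and 3, were linked to label-retaining cells. Leaving out linked cells gave 4 of 25 and 0 of 22 cells.

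The authors' library kit does not mark strand, so reads where a gene overlaps another on the opposite strand cannot be assigned with certainty. RefSeq (GRCm38.p6) places 288 bases of Psenen over U2af1l4, 261 bases of Ncstn over Copa and 99 bases of Adam17 over Iah1. The neighbour was also seen in 7 of 18 cells with Psenen, in 7 of 10 with Ncstn and in 6 of 11 with Adam17.

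The start regions of Psen2 and Psenen are shown because theirs was the gamma-secretase pair seen most often in label-retaining cells, in 7 of 37, and each has 2 start windows in RefSeq. Each line gives 300 bases around a start site, most of them before it, read 5′ to 3′ on the gene's minus strand from RefSeq windows of GRCm38.p6. Capitals mark matches on either strand. The motifs searched were TGGGAA, the core of RBPJ sites, then the GC box with the letters GGGCGG, then the box named for the letters CCAAT, and last CCGGAA, the core of ETS sites. None of these contains another.
Psen2 at chr1:180256251-180256550: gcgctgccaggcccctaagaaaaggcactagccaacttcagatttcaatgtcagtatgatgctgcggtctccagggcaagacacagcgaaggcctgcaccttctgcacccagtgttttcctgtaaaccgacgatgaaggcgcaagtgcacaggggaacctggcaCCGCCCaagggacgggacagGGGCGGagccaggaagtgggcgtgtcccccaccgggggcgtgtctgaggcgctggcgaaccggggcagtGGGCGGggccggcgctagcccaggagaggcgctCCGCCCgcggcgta
Psen2 at chr1:180245901-180246200: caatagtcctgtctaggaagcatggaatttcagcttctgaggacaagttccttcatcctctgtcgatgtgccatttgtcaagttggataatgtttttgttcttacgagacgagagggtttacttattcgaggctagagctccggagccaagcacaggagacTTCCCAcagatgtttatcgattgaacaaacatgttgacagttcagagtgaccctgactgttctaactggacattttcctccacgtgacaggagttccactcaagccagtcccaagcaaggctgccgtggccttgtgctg
Psenen at chr7:30563578-30563877: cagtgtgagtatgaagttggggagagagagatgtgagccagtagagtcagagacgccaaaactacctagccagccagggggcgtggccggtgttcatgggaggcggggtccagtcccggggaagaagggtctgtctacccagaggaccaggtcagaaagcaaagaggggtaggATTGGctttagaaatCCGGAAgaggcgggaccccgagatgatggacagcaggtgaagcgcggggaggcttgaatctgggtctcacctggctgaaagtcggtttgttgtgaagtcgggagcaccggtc
Psenen at chr7:30563155-30563454: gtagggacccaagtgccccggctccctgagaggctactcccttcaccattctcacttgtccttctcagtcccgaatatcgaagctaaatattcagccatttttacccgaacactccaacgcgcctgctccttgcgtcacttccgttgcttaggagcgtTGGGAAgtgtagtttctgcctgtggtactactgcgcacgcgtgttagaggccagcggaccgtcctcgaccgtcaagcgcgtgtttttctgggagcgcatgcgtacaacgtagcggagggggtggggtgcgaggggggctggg

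The first Psen2 window holds 4 GC boxes and the first Psenen window 1 CCAAT box and 1 ETS core. The second window of each gene holds 1 RBPJ core. Of the 8 genes 7 had a window, 11 windows in all: 2 hold the RBPJ core, 6 a GC box, 4 a CCAAT box and 3 an ETS core. Over all 32851 mouse windows of the same length the shares were 25.6%, 35.7%, 37.4% and 14.9%. A match is a description of letters and not a bound site.

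Among the regulators, Dtx3 (chr10:127190373-127196498), a Deltex-family ubiquitin ligase, was in 3 of 9, 2 of 9, 0 of 10 and 4 of 9 label-retaining cells and in 1 of 8, 0 of 4, 1 of 6 and 0 of 10 non-label-retaining cells. Both non-label-retaining detections were of 1 count. In label-retaining cells 8 of 9 detections were of 10 counts or more, up to 1420. The mean shares were 25.0% ± 19.0 and 7.29% ± 8.59 (exact permutation p = 0.171, adjusted p = 0.469, n = 4 repeats). The share was larger in the label-retaining group in 3 repeats and smaller in repeat 3. Without linked cells Dtx3 was in 6 of 25 and 2 of 22 cells.

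Numb (chr12:83794034-83921942) encodes an endocytic adaptor that is passed unequally to daughter cells in some divisions and restrains Notch. It was in 2 of 9 label-retaining cells of each of repeats 1 and 2 and in 2 of 4 non-label-retaining cells of repeat 2, and at 0 elsewhere. The mean shares were 11.1% and 12.5%, a difference of -1.39 points, or 1.67 points with linked cells left out. The counts were 1558, 3.53, 2552 and 17.1 in the label-retaining cells, against 7 and 1 in the non-label-retaining ones. Per 10000 counts of the cell they were 3.74, 0.644, 6.53 and 0.244 against 0.621 and 0.367, which overlap. The 2 non-label-retaining cells, 11 and 12, were linked at an r of 0.834. Cell 12, with 1 count, was also linked across the groups to label-retaining cell 18 (r = 0.602), with 17.1 counts.

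Maml1 (chr11:50255634-50293131) encodes a Mastermind-like coactivator that binds the Notch intracellular domain on RBPJ. It was in 2 of 9 label-retaining cells of each of repeats 2 and 4, with 403, 6, 8 and 243 counts, and in 1 non-label-retaining cell of each of repeats 1 and 4, with 18 and 4 counts. The mean shares were 11.1% ± 12.8 and 5.63% ± 6.57. They were 10.6% and 7.29% with linked cells left out, and 5.89% and 5.75% thinned to 10000 counts. Numb and Maml1 were in too few cells for a test.

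**Figure D3:**
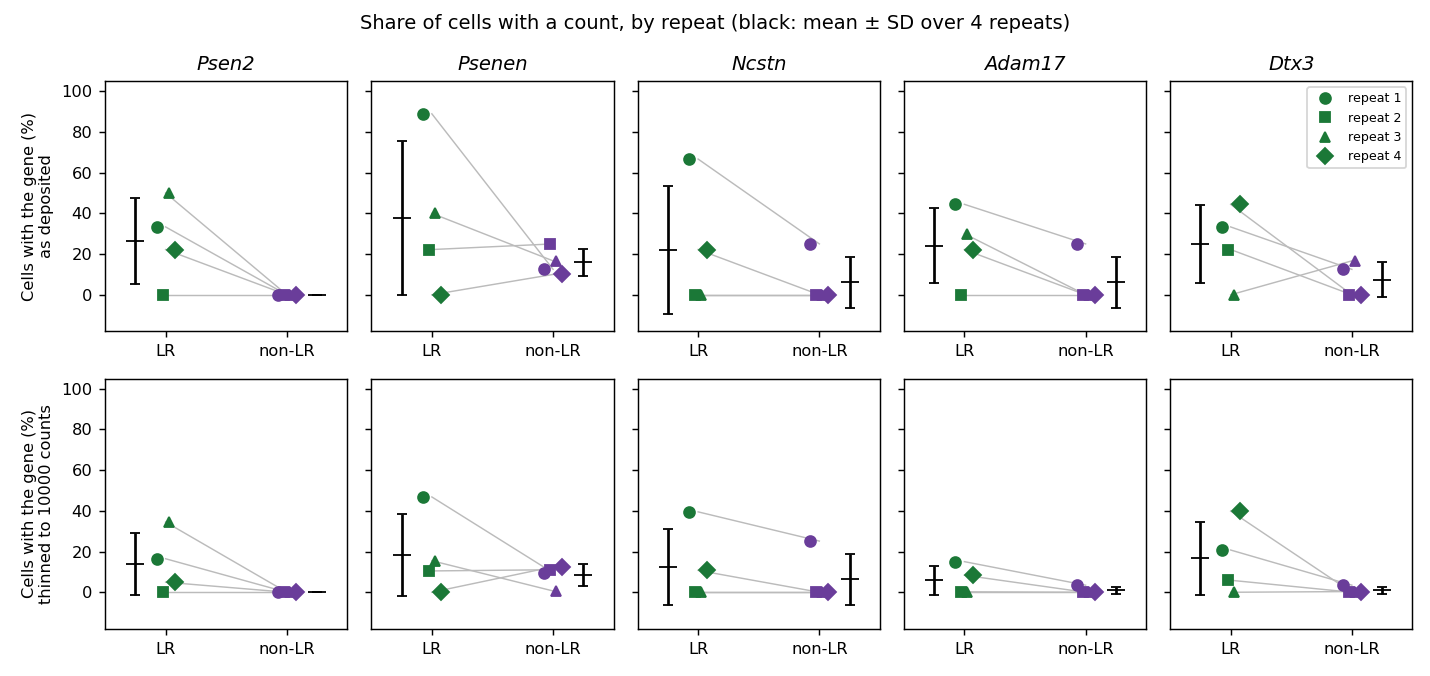
Share of cells with a count of the 5 tested genes by group (LR, label-retaining; non-LR, non-label-retaining) and repeat, as deposited (top) and as calculated for thinning each cell of at least 10000 counts to 10000 (bottom). Symbols are repeats, grey lines join the same repeat number, and black bars are the mean ± SD over 4 repeats; the mean label-retaining share of Psen2 falls from 26.4% to 14.0% and that of Psenen from 37.8% to 18.2%.

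For levels, counts were added up within each group of each repeat, and edgeR's quasi-likelihood test was run on the 2786 genes that passed the filter on low counts. At an adjusted p under 0.05 it called 0% (smallest adjusted p 0.326). Unadjusted p-values were under 0.05 for 180 genes with a higher (6.46%) and 122 with a lower (4.38%) label-retaining level, and 65.5% had a log2 fold change above 0. That split depends on the scaling: it was 230 and 43 on total counts and 98 and 283 with upper-quartile scaling. Over all genes tested the median log2 fold change was likewise 1.15 with the TMM scaling used here, 1.78 on total counts and 0.13 with the upper quartile, and single changes have to be read against that shift. DESeq2 called 14 genes (0.503%). Of the 8 genes Psen2 alone was given an adjusted p by DESeq2, and it was not called (0.166). The others of the 8 could not have been called. Psen2, Psenen, Ncstn and Dtx3 passed that filter.

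Psen2 reached 16.4, 0, 156 and 3.98 CPM, counts scaled to the same TMM library size, in label-retaining repeats 1 to 4 and 0 in each non-label-retaining repeat. Repeat 3 stands far above the others. Taking 3 counts per non-label-retaining sum as a floor, a mean of 6.87 CPM, the label-retaining mean of 44.1 ± 74.9 CPM was at least 6.42-fold higher. With linked cells left out the values were 1.43, 0, 149 and 3.52 CPM, at least 4.60-fold above a floor of 8.34 CPM. Both bounds rest on repeat 3: without it the label-retaining mean was 6.78 CPM, or 1.65 CPM with linked cells left out, under the floor in each case, and no fold can be given. By edgeR Psen2 had an unadjusted p of 0.00778 and an adjusted p of 0.326, and by DESeq2 an adjusted p of 0.166. Without the linked cells Psen2 was below the filter, so the difference was not tested there.

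Dtx3 had 26.4, 15.5, 0 and 97.7 CPM in label-retaining repeats and 0.668, 0, 1.92 and 0 in non-label-retaining ones. All non-label-retaining values lie below 3 of the 4 label-retaining ones, and repeat 3 goes the other way. The log2 fold change was 5.58 ± 2.81 (SE), with an edgeR unadjusted p of 0.0472 and an adjusted p of 0.448. With linked cells left out the CPM were 0.372, 18.1, 0 and 86.4 against 2.47, 0, 1.87 and 0, so repeat 1 no longer shows the difference.

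Psenen had 65.8, 46.4, 33.2 and 0 CPM in label-retaining repeats and 24.7, 7.87, 1.92 and 1616 in non-label-retaining ones. The last value comes from 1 cell with 613 counts, cell 25 of repeat 4, and is raised by that sum's TMM factor of 0.223. The sign depends on that repeat and on the fit, and the size on the scaling. The log2 fold change was -3.50 ± 2.26 (edgeR adjusted p = 0.509) with that repeat and 1.15 without it (adjusted p = 0.940). The paired fit, with the repeat number as a block, gave 1.40 (adjusted p = 0.830). In the other 3 repeats the label-retaining sum was the higher one. With all repeats but other scaling, the edgeR log2 fold change was -0.67 on total counts (adjusted p = 0.877). With upper-quartile scaling it was -5.60 (edgeR adjusted p = 0.342).

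Ncstn had 168, 0, 0 and 8.84 CPM in label-retaining repeats and 92.8, 0, 0 and 0 in non-label-retaining ones, with a log2 fold change of 0.91 ± 2.26 (edgeR adjusted p = 0.833). Repeat 1 is high in both groups. The non-label-retaining value of 92.8 comes almost wholly from cell 3, with 137 counts, which is linked to a label-retaining cell, and the choice of the deeper cell then leaves that group at 0 in all 4 repeats, against 178, 0, 0 and 7.82 CPM, so no fold is drawn from it. Without label-retaining repeat 1 the label-retaining mean was 2.95 CPM, against 44.2 with it.

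The other 4 genes were below the filter. Jag2 reached 25.6 CPM in label-retaining repeat 4 alone. Without linked cells it was at 22.7 CPM there. Adam17 had 4.67, 0, 0.475 and 9.72 CPM against 5.34, 0, 0 and 0, means of 3.72 and 1.34. Its order turned with linked cells left out, at 4.48, 0, 0.859 and 8.60 CPM against 19.7, 0, 0 and 0, means of 3.48 and 4.94. Numb had 23.8, 139, 0 and 0 CPM against 0, 31.5, 0 and 0. Without linked cells its means were 48.8 and 7.29 CPM, beside 40.8 and 7.87. Maml1 had 0, 22.2, 0 and 111 CPM against 12.0, 0, 0 and 10.5, and without linked cells its means were 31.0 and 13.7, beside 33.3 and 5.64. For Adam17 and for Numb the 1 non-label-retaining repeat above 0 has a label-retaining counterpart above 0 too.

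Co-detection asks whether the same cells hold several of the genes. Of the 28 pairs of the 8 genes, 23 were seen together in at least 1 label-retaining cell and 1 in a non-label-retaining cell. Psen2 with Psenen was seen in 7 label-retaining cells, 3 of repeat 1 and 4 of repeat 3. Adam17 was with Psen2 in 7 and with Psenen in 7. Psenen and Ncstn were together in 6, all of repeat 1, and in non-label-retaining cell 3 of repeat 1. If each gene fell independently within its repeat, 4.67 cells with Psen2 and Psenen would be expected, 3.28 with Adam17 and Psen2, and 5.33 with Psenen and Ncstn. Summed over all pairs there were 74 joint detections, against 46.1 from the product of the shares within repeats, and 21 pairs were above that product. The product takes all cells of a repeat as alike, yet genes per cell ran from 536 to 3640 in label-retaining repeat 4. A cell with more genes of all kinds holds more pairs of any genes. Pairs of other genes were not compared, so the excess is not read as a trait of the 8. All 3 gamma-secretase subunits of the list were found together in 2 cells, label-retaining cells 6 and 9 of repeat 1. Both were left out as linked, so no kept cell held all 3. Cell 6 had Ncstn at 1 count, and cell 9 had Psen2, Psenen and Ncstn at 2, 4 and 6 counts. Over all cells, at least 1 of the 3 subunits was in 18 label-retaining and 5 non-label-retaining cells.

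Fewer detections leave fewer joint ones, so each setting is read against its own product of shares, which has the same limit. After thinning to 10000 counts there would be 17.5 joint detections in label-retaining cells against a product of 12.6. Of these, Psen2 with Psenen made 2.28 against 1.23, and Psenen with Ncstn 1.35 against 1.66. With linked cells left out there were 37 joint detections against 20.0. Psen2 and Psenen were then together in 2 label-retaining cells against 0.967, Adam17 and Psen2 in 3 against 1.01, and Psenen and Ncstn in 2 against 1.6. The pair in a non-label-retaining cell was lost, and 22 pairs were still seen in at least 1 cell. Jag2 was seen with Adam17 in 1 cell and with Dtx3 in 2, and with no other gene of the 8.

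The linked pairs show where the joint detections lie. Label-retaining cells 17 and 18 of repeat 2, with an r of 0.720, are the only cells of that repeat and group with any of the 8 genes, and hold the same 4. Cell 17 had 852 counts of Psenen, 2552 of Numb, 284.5 of Dtx3 and 403 of Maml1, and cell 18 had 4, 17.1, 1 and 6. The ratios of 213, 150, 284.5 and 67.2 stand beside a median ratio of 91.2 over all genes the cells share. In repeat 1, label-retaining cells 6 and 7 (r = 0.663) shared Psen2, Psenen, Dtx3 and Adam17, at ratios of 14.5, 16.0, 16.2 and 6.60, all above the median of 1.5 over the genes these cells share. Numb, with 1558 counts in cell 7, was at 0 in cell 6.

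Across the groups, label-retaining cell 3 and non-label-retaining cell 3 of repeat 1 had an r of 0.902. Psenen was at 2762 and 37 counts and Ncstn at 8595 and 137, ratios of 74.7 and 62.6 beside a median of 60.7 over shared genes. By contrast, label-retaining cells 3 and 4 (r = 0.744) had a Psenen ratio of 115 and an Ncstn ratio of 3.61, beside a median of 35.5, and Dtx3 was at 1420 in cell 4 and at 0 in cell 3. Over all detections of the 8 genes, 24 of 60 in label-retaining cells (40.0%) and 4 of 14 in non-label-retaining cells (28.6%) had a linked cell with a higher count of the same gene. Detections of 2 counts or fewer made up 12 of the 60 and 7 of the 14.

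**Figure D4:**
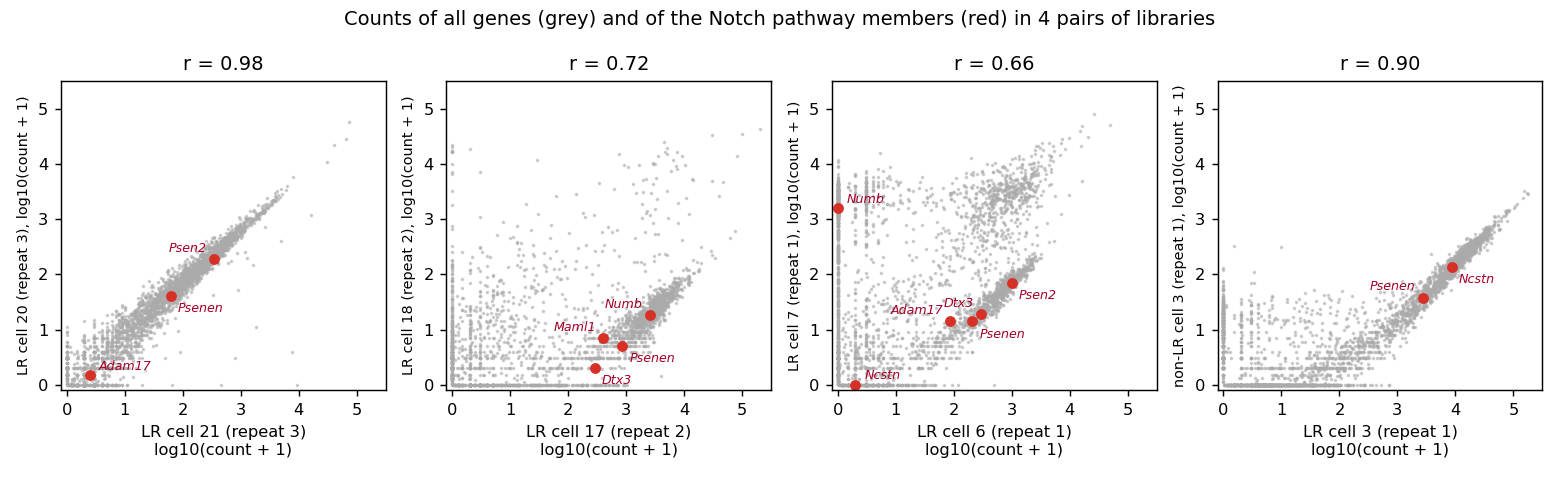
Counts of every gene (grey) and of the 8 genes (red, named) in both cells of 4 linked pairs, as log10(count + 1); LR, label-retaining; non-LR, non-label-retaining. In the outer panels most genes held by both cells lie along a line of near constant ratio, and in the inner panels part of them does. Many genes of the right panel are in 1 cell alone: the cells share 2158 of their 3292 and 2486 genes. In cells 6 and 7 the red points Numb and Ncstn are each held by 1 cell alone.

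Cells with any of the 8 genes were cells in which more genes of all kinds were found. Label-retaining cells with at least 1 had a median of 2595 genes, against 1240.5 in those with 0. In the non-label-retaining group the medians were 1168 and 762. Among the cells kept when linked ones are left out they were 2702 and 852, and 1019 and 706.5. Among label-retaining cells, cell 3 of repeat 1, the deepest at 20516069 counts, held 2 of the 8, and cell 29 of repeat 4, with 164961 counts and 3640 genes, held 5. Total counts separate the cells less well. Median totals were 541416 with and 242412 without a gene of the 8 among label-retaining cells, and 112781 with and 165707 without among non-label-retaining cells. The part of gene number in the difference between the groups was not tested beyond the thinned values above.

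**Figure D5:**
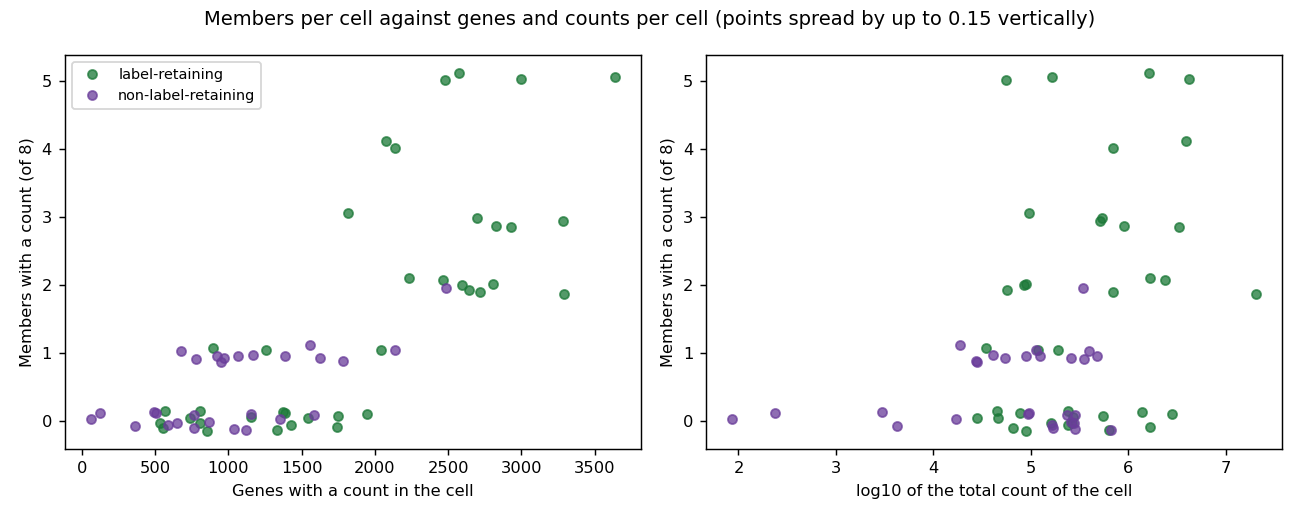
Number of the 8 genes with a count in each cell against the number of all genes with a count (left) and log10 of the total count (right), label-retaining in green and non-label-retaining in purple, points spread by up to 0.15 vertically. Cells with 2 or more of the 8 have at least 1817 genes, and the 18 label-retaining ones stand against 1 non-label-retaining one.

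The other listed genes of the pathway had the direction of nearly all genes. Of these 61 genes 21 were in the table, 16 had a value above 0 and 11 were tested. The mean share was larger in label-retaining cells for 11 of 11, beside 93.5% of all genes, with a median difference of 24.6 points beside 19.4 over all genes, and 0 passed at an adjusted p under 0.05. After linked cells were left out 8 were tested, and 8 of 8 were larger, beside 91.8% of all genes. At an unadjusted p under 0.05 there were 2 of the 11, beside 8.48% of all genes: Snw1, a nuclear cofactor seen in 27 label-retaining and 8 non-label-retaining cells, and Aak1, an endocytic kinase seen in 13 and 3 (both with an exact permutation p of 0.0286 and an adjusted p of 0.337). Without linked cells these 2 were in 17 and 5 and in 9 and 2 cells, with exact permutation p of 0.0857 and 0.0571, and 1 other gene, Furin, was past that threshold, in 14 and 2 cells (exact permutation p of 0.0286, adjusted p of 0.395). Furin, which cuts the receptor during its maturation, was in 21 and 3 cells. Mib1, a ubiquitin ligase that acts on the ligands, was in 21 and 6, and without linked cells in 11 and 4.

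Of the nuclear factors, Ncor1 was in 30 and 12 cells, Ctbp2 in 16 and 7, Kat2b in 13 and 3 and Hdac2 in 10 and 3. Without linked cells these were 18 and 9, 10 and 6, 6 and 2, and 7 and 2. The difference in mean share then fell from 15.4 to 1.53 points for Ctbp2 and rose from 17.4 to 21.4 for Hdac2. Ncor1, Ctbp2 and Hdac2 belong to corepressor complexes and Kat2b is a histone acetyltransferase. The listed targets Ptcra and Bcl2 were in 19 and 9 and in 18 and 8 cells. Without linked cells they were in 12 and 8 and in 11 and 7. Their differences in mean share then fell from 21.1 to 16.7 and from 16.2 to 6.60 points. Lfng and Rfng, glycosyltransferases that modify the receptor, were in 6 and 3 label-retaining cells and 0 non-label-retaining ones. Without linked cells they were in 4 and 1 label-retaining cells. The 4 listed receptor genes were not among those found in the table used here, so they were not analysed.

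For each of the 8 genes seen in at least 10 cells, the genes most alike in detection were found by the Jaccard index, the cells with both over the cells with either, over all 65 cells. For Psen2 they were Ipmk (0.769), Msl3 (0.692) and Pde3b (0.667), and for Psenen Nme1 (0.75), Cmtm7 (0.739) and Blvrb (0.667). Tom1l2 (0.692), Tmem86a (0.667) and Cfap36 (0.615) were nearest to Ncstn. Ap2s1 (0.6), Kat2b (0.588) and Fkbp4 (0.563) were nearest to Adam17, and 2610507I01Rik (0.6), Alyref2 (0.571) and Ralgapa1 (0.563) to Dtx3. Nme1 was found in all 18 cells with Psenen and in 24 cells in all, 14 of them label-retaining and 10 not. Ipmk was found in all 10 cells with Psen2, and of its 13 cells 1 was non-label-retaining. The rule left out the 8 genes themselves, and the number of genes per cell enters these values. When linked cells were left out 12 of the 15 indices were lower, and they ran from 0.429 to 0.692, against 0.563 to 0.769 over all cells.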

How the data were processed

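Single-cell cDNA was made with SMART-Seq v4 and sequenced as Nextera XT libraries, per the labels' protocols. The authors deposited 1 table of estimated counts, with a column per cell; the submitters' processing notes name mm10 and DESeq. The read aligner and the counting tool are not named in the labels used here. Although named normalized, the values show no scaling: totals per cell run from 86 to 20516069, and a median of 72.4% of values between 0.5 and 20 per cell are whole within 0.0001. They were treated as unnormalized and rounded after summing.

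The 8 genes and all lists were chosen with earlier results of these data known. Of 18036 identifiers 16216 matched a RefSeq symbol (GRCm38.p6). A gene was detected at a value above 0. Shares per repeat were compared by exact two-sided permutation of 4 against 4 repeats over genes seen in at least 10 cells. Sums per repeat and group were tested with edgeR 4.0.16 (quasi-likelihood, TMM, robust; R 4.3.3) where the mean per cell averaged at least 10 and at least 10 cells had a count; DESeq2 1.42.0 was an alternative. The SE beside an edgeR log2 fold change was not fitted. It was worked back as the size of the change over the square root of the quasi-likelihood F. P-values were adjusted by Benjamini-Hochberg over all genes tested. Thinning to 10000 or 50000 counts was the exact hypergeometric expectation, leaving out shallower cells. Leaving out linked cells was added after seeing the data. Intervals and floors of 3 counts cover counting error only. The scripts were tested on simulated data.

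Same-numbered repeats of the groups deviated together (r = 0.563, 0.268, 0.175 and 0.153), so the numbers were taken to pair the samples, although label-retaining repeat 4 correlated best with non-label-retaining repeat 3, and the paired fit is an alternative. Named outside the 8 are listed pathway genes seen in at least 10 cells, of which 1 is not reported here, and the 3 nearest genes by Jaccard index of each of the 8; Lfng and Rfng were named after their values were seen. Proteins are not analysed here.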

Additional observations from a re-analysis of the deposited data

Results flagged for a closer look

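In 34 groups of 4 repeats, 1 repeat stood apart from the other 3 in 11 by Dixon's 95% criterion, the gap to the nearest repeat over the whole range, of which 4 were shares of cells and 7 were levels. Chance alone gives this in about 1 of 20 groups, and a group in which 3 repeats are at 0 meets it with any value in the last one.

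For Jag2, label-retaining repeat 4 had the gene in 22.2% of cells and a level of 25.6 CPM, against 0 in the other 3. Adam17 stood out in non-label-retaining repeat 1, with 25.0% of cells and 5.34 CPM. For Ncstn, repeat 1 stood apart in both groups by level, at 168 CPM in label-retaining and 92.8 CPM in non-label-retaining cells, and by share in the latter, at 25.0%. Numb was apart in non-label-retaining repeat 2, with 50% of its 4 cells and 31.5 CPM. Psen2 in label-retaining repeat 3 was at 156 CPM, most of it in linked cells 20, 21 and 22. Psenen in non-label-retaining repeat 4 was at 1616 CPM, from 1 cell with 613 counts. That cell was kept when linked cells were left out, and the level there was then 1609 CPM.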

How the results depend on the processing

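No alternative to the test of detection shares called a gene (0 in each of 21), and among 22 alternatives to the test of levels only DESeq2 did, with 14 genes (8 higher, 6 lower), against 0 by edgeR, whose smallest adjusted p was 0.326. The tests of shares had little room to call a gene. With the same repeat left out of both groups the smallest exact permutation p was 0.1, which can never be called. In the other permutation tests it was 0.0286, which a large part of all genes would have to reach. These counts of 0 therefore do not show that no gene differs. With the replicate block, pairing same-numbered repeats, both tests called 0 genes: the smallest adjusted p was 0.523 for levels, with 212 genes higher and 9 lower unadjusted, and 0.428 for shares, where sign flips cannot give a p under 0.125. Unadjusted counts of higher genes by level ran from 66 to 556 over the alternatives. The number of the 8 genes per cell kept its direction, with a difference of 0.484 to 1.41 beside 1.09, and over the alternatives that leave out 1 repeat 0.675 to 1.41.

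Shares of Psen2, Psenen, Ncstn, Adam17 and Dtx3 kept their direction in all 22 alternatives each, but not their size. Over these the difference ran from 6.09 to 35.2 points for Psen2 (26.4 in the main analysis), 3.52 to 34.3 for Psenen (21.7), 1.16 to 23.4 for Ncstn (16.0), 4.01 to 26.0 for Adam17 (17.9) and 8.80 to 29.2 for Dtx3 (17.7). Those that turned were untested. Numb, at -1.39 points, was at 8.33 with a minimum of 10 counts, 0.584 thinned to 10000, 1.67 with linked cells left out, 3.90 with both, and 3.67 as a share of all cells of a group; leaving out 1 repeat gave -9.26 to 11.1. Maml1, at 5.49 points, was at -1.25 with linked cells left out at an r of 0.5 and at -0.287 with those at 0.6 left out and thinning; leaving out 1 repeat gave -0.0926 to 11.5. By level, Psenen turned from -3.50 to 1.40 with the replicate block, and leaving out 1 repeat gave Psenen -4.21 to 1.54 and Ncstn, at 0.91, from -0.14 to 1.26. Ncstn turned without any 1 of non-label-retaining repeats 2, 3 and 4. The cause of these turns was not tested. Of the 8 genes 0 passed the filter at a mean of 50 and 20 cells, without repeat 1, or with linked cells left out, so these give no value. Joint detection of Psen2 with Psenen moved from 7 cells to 2 and of Psenen with Ncstn from 6 to 1.35 under alternatives. Depth limits every share here: 4 non-label-retaining cells have under 10000 counts.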
